A study of Python bivittatus with 8 samples.

Results

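Left ventricle of the Burmese python (Python bivittatus) taken 6 days after a meal was compared with ventricle taken 1 day after one. The members are 4 of the series' 8 libraries, chosen by their labels: 2 libraries of the group called 1DPF (days post-fed) and 2 of the group called 6DPF. Poly-A RNA was sequenced from captive-bred, wild-type snakes that had all been fasted for 28 days. Both groups were then fed rodents, at 25% of the snake's own mass, and were killed at day 1 or day 6. The submitters describe day 1 as a time of active cardiac growth and day 6 as a later stage of regression. The comparison therefore asks which transcripts separate a growing ventricle from one that is shrinking back. Another 2 libraries came from snakes at the end of the fast and 2 from day 4, called 4DPF. They are used below to place the levels of the genes that differ. The labels give 6 snakes for the sequencing and proteomics together and do not say which snake gave which library. If 6 is the number of all snakes, some of them gave more than 1 of the 8 libraries. As each snake was killed at 1 time, these would be libraries of the same group. The errors and p-values therefore measure the spread between libraries, which may be partly technical and may understate the spread between snakes.

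Burmese pythons eat large meals at long intervals. After a meal their heart, like the gut, liver and kidney, gains mass within days and loses it again as digestion ends. Growth of a ventricle rests mainly on larger cardiomyocytes that make more contractile, ribosomal and mitochondrial protein, and loss of mass on protein breakdown by the proteasome and by autophagy. FoxO1, named in the series' title, is a transcription factor that insulin signalling through AKT keeps out of the nucleus, and in mammalian muscle it switches on genes of both breakdown routes. The deposited table names genes only by number, so transcripts of these pathways, FoxO1 included, and cell type markers may be among the genes tested but are not named here. The tissue label could not be set against cardiomyocyte markers for the same reason. In whole tissue, fewer cells of a type and less RNA per cell cannot be told apart.

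Library totals were 36972977 and 40643771 counts at 1DPF and 42250755 and 38942637 at 6DPF, so that 1 read was worth between 0.0237 and 0.027 CPM, the counts scaled to a common library size. Each of these libraries had at least 1 read in 18349 to 18675 genes. Over the 16986 genes tested, the root mean square difference in log2 CPM between replicates was 0.651 at 1DPF and 0.558 at 6DPF. The 4 pairings of a 6DPF with a 1DPF library gave 0.927 to 0.974, all larger than the differences inside a group. A difference of at least 2-fold between the 2 libraries of a group was seen in 1620 genes (9.54%) at 1DPF and 1257 (7.4%) at 6DPF.

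Of the 16986 genes tested, 1923 were higher and 1760 lower at 6DPF than at 1DPF (21.7% called; edgeR quasi-likelihood test on all 8 libraries, Benjamini-Hochberg adjusted p under 0.05, two-sided). In all 3683 called genes the 2 libraries of a group lay on the same side of both libraries of the other. Such a separation was also common without a call, as it occurred in 6844 of the 13303 genes not called. Over all tested genes, called or not, it occurred upwards in 31.1% and downwards in 30.9%. The higher genes made up 11.3% of those tested and the lower genes 10.4%. The number called became 2385 and 1838 without 1DPF replicates 1 and 2, and 2155 and 1923 without 6DPF replicates 1 and 2. No called gene was called in the opposite direction in any of these fits. As the groups did not overlap in any called gene, an opposite call could hardly occur.

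**Figure D1:**
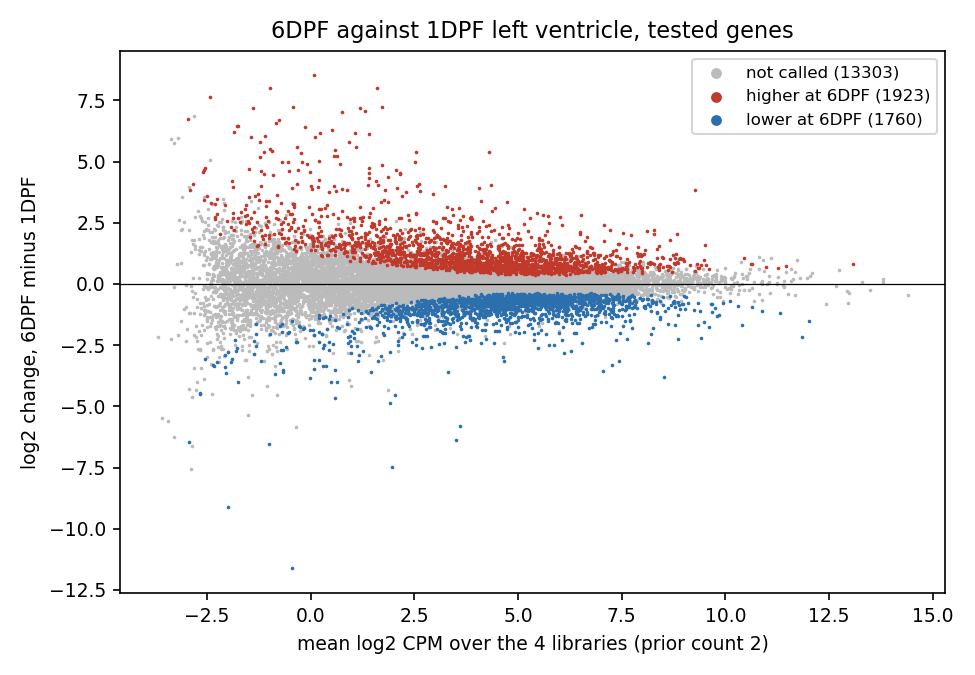
Each point is 1 of 16986 tested genes, with its mean log2 CPM over the 1DPF and 6DPF libraries on the x axis and the fitted log2 change, 6DPF minus 1DPF, on the y axis. Genes called higher at 6DPF (1923) are red, those called lower (1760) blue and those not called grey. The largest changes lie at low levels, and more of them are increases.

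The fitted increases were larger than the decreases by their medians. Higher genes had a median log2 change of 1.05 (quartiles 0.728 and 1.64), and lower genes one of -0.86 (quartiles -1.21 and -0.646). The higher genes also lay at lower levels (median 17.7 against 26.7 CPM) and had a larger median standard error (0.198 against 0.165). A larger error lets only larger changes be called, and its part in the difference of the medians was not tested. At least a 2-fold fitted change was reached by 1015 of the higher genes (52.8%) and 657 of the lower genes (37.3%). At least an 8-fold change was reached by 131 higher and 44 lower genes. The smallest called change had a size of 0.375 upwards and 0.369 downwards on the log2 scale, and 496 called genes changed by less than 1.5-fold.

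When the test asked for a change beyond 2-fold rather than any change (edgeR's glmTreat, adjusted p under 0.05), 160 genes were higher and 56 lower at 6DPF. These are 0.942% and 0.33% of the tested genes. Their total of 216 became 102 without 1DPF replicate 2, and 73 and 81 without 6DPF replicates 1 and 2, while without 1DPF replicate 1 it was 153. The total was 219 with the replicate number as a block and 151 with the 1DPF and 6DPF libraries alone. It rose to 336 with the block and the 1DPF numbers exchanged, a fit added after seeing the data. The 160 genes had a median of 2.55 CPM at 1DPF and 18.6 CPM at 6DPF. The 56 genes had a median of 49.9 CPM at 1DPF and 11.9 CPM at 6DPF.

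Many of the other genes were measured closely enough to bound their change. Of the 13303 genes not called, 7599 (57.1%) had a 95% interval of the log2 change that lay wholly within 2-fold in either direction, and for 3192 it lay within 1.5-fold. An unadjusted p under 0.05 was found in 2480 of the uncalled genes, which may include genes with an interval within 2-fold. For 795 of the called genes the interval also stayed within 2-fold, so that these genes changed by a small amount measured with small error.

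The reproducibility of the change between libraries was read from library pairs that share no library. Such pairs may still share a snake, since the labels do not link snakes to libraries, so reproducibility between snakes was not measured. The log2 difference between 6DPF replicate 1 and 1DPF replicate 1 was set against that between 6DPF replicate 2 and 1DPF replicate 2 for each of the 16986 tested genes. Pearson's r was 0.53 and Spearman's rho 0.54, and 12257 genes (72.2%) had the same sign in both pairs. With the 1DPF replicates exchanged, r was 0.66, rho 0.62 and the share of equal signs 72.6%. These correlations run across genes, which are not independent replicates, and the labels do not say that the replicate numbers link the groups.

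**Figure D2:**
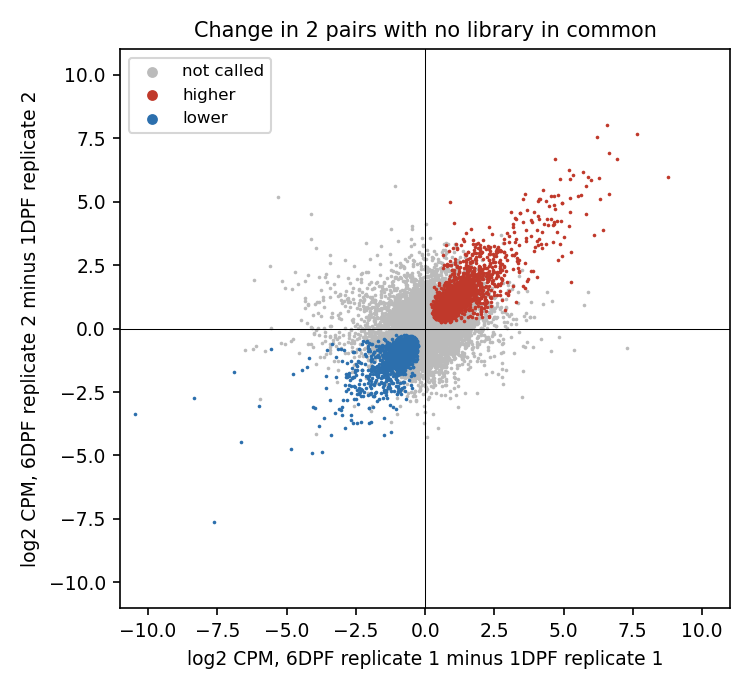
Each point is a tested gene. The x axis is its log2 CPM difference between the replicate 1 libraries of 6DPF and 1DPF and the y axis the same for the replicate 2 libraries, and colours mark genes called higher (red), lower (blue) or not called (grey). The called genes fill the 2 quadrants where the pairs have the same sign. This follows from their groups not overlapping in the same libraries, so it does not measure reproducibility. Many uncalled genes with a large difference in 1 pair have a small or opposite one in the other.

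The genes higher at 6DPF took 7.51% and 7.23% of the reads of the 1DPF libraries and 14.2% and 14.6% of those of the 6DPF libraries. The genes lower at 6DPF took 16.9% and 17.7% of the reads at 1DPF and 8.95% and 8.31% at 6DPF. The libraries that chose these genes also give the shares, which therefore overstate the shift. In the fasted libraries, which the contrast did not compare, the higher genes held 12.5% and 12.4% of the reads and the lower genes 9.42% and 8.66%. At 4DPF the shares were 11.2% and 11.2% for the higher genes and 12.2% and 11.5% for the lower genes. Both sets stood at 4DPF and in the fast between their 1DPF and 6DPF shares, except that the lower genes' share in fasted replicate 2 lay below that of 6DPF replicate 1. Choosing genes by a gap between 1DPF and 6DPF itself favours a place between them, so nothing is read from it.

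The 500 transcripts that take the most reads were called about as often as all tested genes. The share called was lower in the top 50, but only by a few genes, and this difference was not tested. The total share of the reads held by either set did not move beyond the spread between libraries. Among the 50 genes with the highest mean CPM over all 8 libraries (at least 1950 CPM each), 4 were called higher, 4 lower and 42 were not called (16% called). All 4 of the lower genes fell at least 2-fold and none of the 4 higher genes rose that much. These 50 genes together held 23.7% and 23.7% of the reads at 1DPF and 22.6% and 24.3% at 6DPF. Among the top 500 genes, 59 were called higher and 60 lower, with at least 2-fold changes in 22 and 29. The 23.8% called among these 500 is close to the 21.7% of all tested genes. It is below the 27.8% called in the fifth of tested genes with the highest mean CPM, to which they belong.

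With the tested genes in 5 bins of equal size by mean CPM, more genes were called higher than lower at low levels and fewer at high levels. In the lowest bin (median 0.692 CPM) 6% of genes were called higher and 2.38% lower. In the second bin (median 4.47 CPM) the shares were 12.2% and 7.71%, and in the third (median 13.7 CPM) 12.2% and 11.5%. In the highest bins, with medians of 32 and 95.6 CPM, 13.4% and 12.7% were called higher and 15.2% and 15.1% lower. The error also differed between the bins. The median standard error of the log2 change was 0.573 in the lowest bin and 0.158 in the highest, and the median size of a called log2 change 2.42 and 0.791. In the lowest bin the interval lay within 2-fold for 3.41% of the uncalled genes, so that changes of that size were mostly not detectable there, against 88.8% in the highest.

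**Figure D3:**
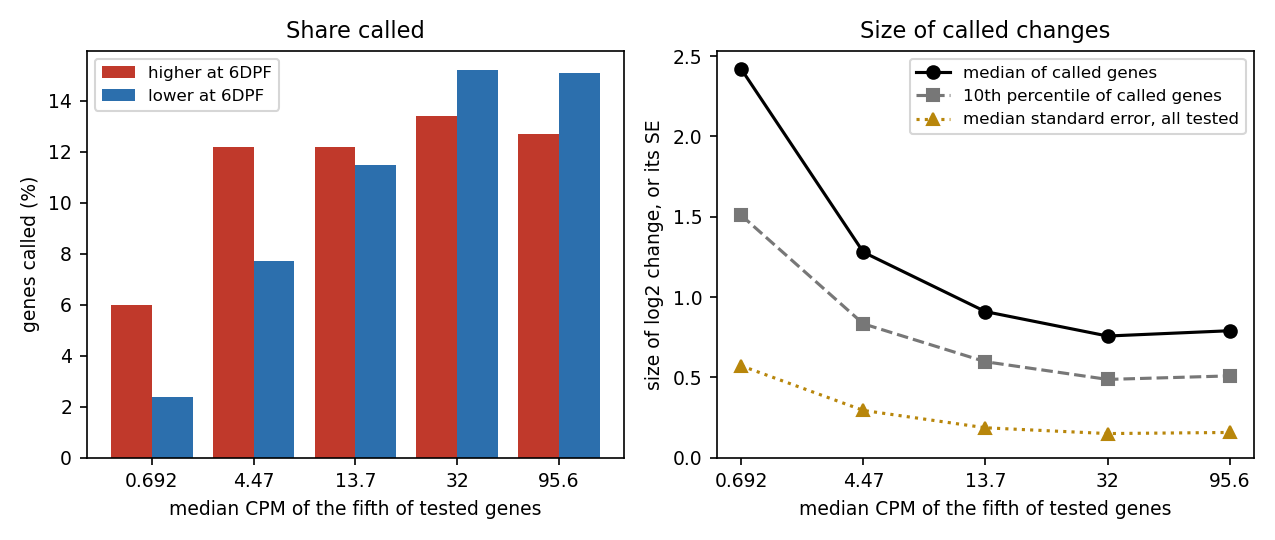
Tested genes were split into 5 bins of equal size by mean CPM over all 8 libraries, and the x axis gives the median CPM of each bin. Left, the percentage called higher (red) or lower (blue) at 6DPF than at 1DPF, from 6% and 2.38% in the lowest bin to 12.7% and 15.1% in the highest. Right, the median and the 10th percentile of the size of the called log2 changes and the median standard error over all tested genes, all larger in the lowest bin than in the others.

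Called genes were somewhat longer than all tested genes by the lengths in the deposited table. The median length was 2621 bases among the higher genes, 2786 among the lower genes and 2503 over all tested genes. In 5 bins of equal size by length, 10.4% of the shortest genes (median 845 bases) were called higher and 5.71% lower, while in the other 4 bins between 11% and 12.2% were higher and between 10.6% and 12.7% lower. The median log2 change over all genes of a bin was 0.063 in the shortest and -0.046 in the longest. Replicates also differed along length: between 6DPF replicate 2 and replicate 1 the medians were 0.11 for the shortest genes and -0.13 for the longest. Against 1DPF replicates 1 and 2, 6DPF replicate 2 gave 0.11 and 0.098 for the shortest genes and -0.12 and -0.088 for the longest. For 6DPF replicate 1 the medians were 0.053 and 0.038 for the shortest genes and 0.028 and 0.038 for the longest. The median standard error of the log2 change was 0.315 in the shortest bin and 0.183 in the longest. The part of length or of this error in the calls was not tested.

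Larger fitted changes than these were seen at lower levels. The 4 genes given here by number are the 2 increases and the 2 decreases with the largest fitted log2 changes among called genes whose log2 CPM averaged at least 3 over the 4 libraries and whose groups do not overlap, a rule that 1259 higher and 1446 lower genes met. What these genes encode is not given in the files. Choosing the largest changes favours genes whose change is overestimated.

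Gene 103067417, 2633 bases long, was at 5.38 and 1.32 CPM in the 1DPF libraries and at 139 and 141 CPM in the 6DPF libraries. Its log2 change was 5.38 (SE 0.58, 95% interval 4.05 to 6.72; edgeR quasi-likelihood adjusted p = 0.00191). Leaving out 1DPF replicate 1 gave a change of 6.73 and leaving out its replicate 2 one of 4.70, and the call held in all 14 alternatives (edgeR or DESeq2 adjusted p from 4.39e-14 to 0.0128). The 6DPF libraries were nearly equal, whereas the 1DPF libraries differed several-fold from each other at a low level of 209 and 52 reads. At 4DPF it was at 37.6 and 58.9 CPM, and in the fast at 118 and 133 CPM, so that the low level was seen in the 1DPF libraries alone among the 8.

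Gene 103060817, 2922 bases long, was at 4.87 and 5.14 CPM at 1DPF and at 92.5 and 72.2 CPM at 6DPF. The log2 change was 4.04 (SE 0.27, 95% interval 3.41 to 4.67; edgeR quasi-likelihood adjusted p = 0.000851). Both groups were tight compared with the gap between them. The 4DPF libraries, at 24.7 and 15.7 CPM, lay between the groups, and the fasted libraries, at 65.9 and 49.7 CPM, lay just under the 6DPF libraries. Its call held in all 14 alternatives run, with log2 changes of 3.89 to 4.19.

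Gene 103064339, 2933 bases long, showed the larger of both decreases, and its 1DPF libraries differed widely. It was at 297 CPM in 1DPF replicate 1 and 20.1 CPM in replicate 2, against 0.866 and 2.99 CPM at 6DPF. The log2 change was -6.38 (SE 1.7, 95% interval -10.3 to -2.5; edgeR quasi-likelihood adjusted p = 0.0323). Without 1DPF replicate 1 it was -3.39 and was not called (edgeR adjusted p = 0.133), while leaving out 1DPF replicate 2 gave -7.28, still called (edgeR adjusted p = 0.0233). Without 6DPF replicates 1 and 2 it was -5.69 and -7.54, also not called (edgeR adjusted p = 0.147 and 0.11). Over all 14 alternatives the adjusted p ran from 0.000757 to 0.147. The fasted libraries, at 1.35 and 6.32 CPM, and the 4DPF libraries, at 1.24 and 14.4 CPM, were all below the lower 1DPF library. In the test against 2-fold this gene was not called (edgeR glmTreat adjusted p = 0.197). The lowest adjusted p of the alternatives came from the block with exchanged 1DPF numbers, a fit added after seeing the data.

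Gene 103062422, 826 bases long, was at 146 and 47.8 CPM at 1DPF and at 1.4 and 2.11 CPM at 6DPF. The log2 change was -5.79 (SE 1, 95% interval -8.13 to -3.46; edgeR quasi-likelihood adjusted p = 0.00778). Every library outside 1DPF was lower than either 1DPF library, with 6.29 and 9.72 CPM in the fast and 2.11 and 16.3 CPM at 4DPF. Without 1DPF replicate 1 its log2 change was -4.78, and without 1DPF replicate 2 it was -6.38, both still called (edgeR adjusted p = 0.0221 and 0.0144). Without 6DPF replicate 1 it was -5.48 and missed the threshold (edgeR adjusted p = 0.0546, the highest over its 14 alternatives, whose lowest was 1.67e-06). Both decreasing genes had replicate 1 above replicate 2 at 1DPF and below it at 4DPF and 6DPF and in the fast.

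**Figure D4:**
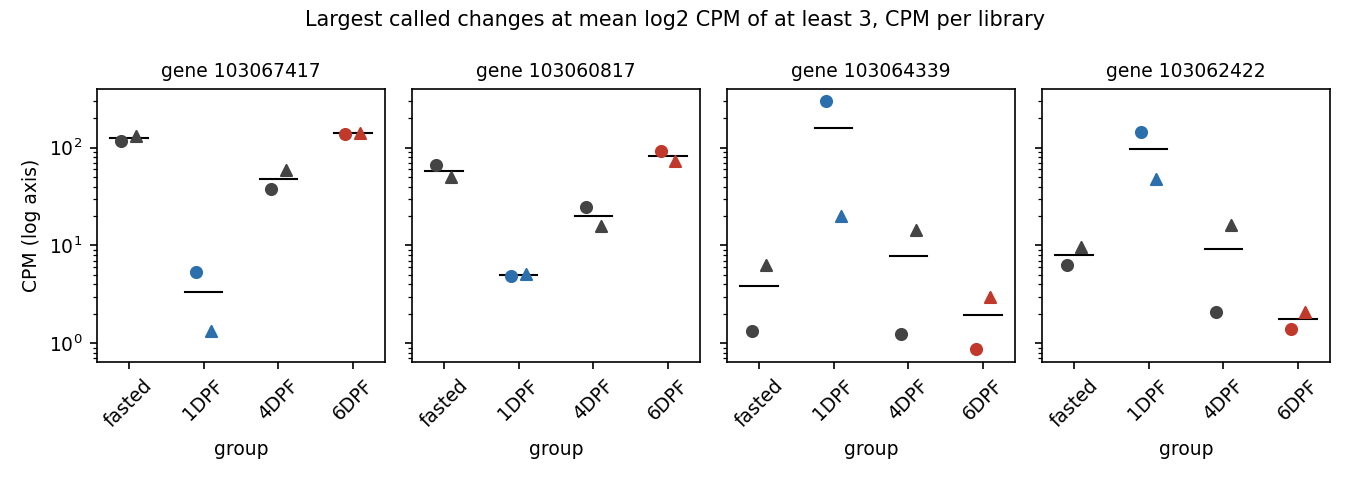
CPM (log axis) of the 2 genes with the largest increases and the 2 with the largest decreases from 1DPF to 6DPF, among called genes whose log2 CPM averaged at least 3 and whose groups do not overlap, in each of the 8 libraries. Circles are replicate 1, triangles replicate 2 and bars group means, with 1DPF in blue, 6DPF in red and the other groups in grey. In gene 103064339 the 1DPF libraries lie far apart, at 297 and 20.1 CPM, while in gene 103060817 they nearly coincide.

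Changes of at least 8-fold mostly involved transcripts that were scarce in one of the groups. The 131 genes that rose this much had a median of 0.179 CPM at 1DPF and 4.68 CPM at 6DPF, and 109 of them had a mean under 1 CPM at 1DPF. Their median was 2.64 CPM at 4DPF and 0.537 CPM in the fast. In 93 of the 131 the fasted mean lay nearer to 1DPF than to 6DPF on the log2 scale, and in 528 of all 1923 higher genes. The 44 genes that fell at least 8-fold had medians of 3.79 CPM at 1DPF, 0.288 at 6DPF, 0.594 at 4DPF and 0.463 in the fast. In 34 of these the fasted mean lay nearer to 6DPF. Which side of the middle a fasted mean fell on was read from 2 libraries and not tested here. Both sets were chosen by a large gap between the compared groups, and most of their genes had a mean under 1 CPM in the lower group. Nothing is therefore read from how these counts differ from those of all called genes. The 1DPF libraries differed by at least 4-fold from each other in 5 of the 131 and 8 of the 44 genes.

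Transcripts close to absence in one group were few. Both 1DPF libraries had at most 3 reads in 75 tested genes whose 6DPF libraries did not, and 34 of these were called. The 34 had a median of 0.701 CPM and a highest value of 15.2 CPM at 6DPF, and 16 of them exceeded 1 CPM there. In 8 of the 34 both fasted libraries also had at most 3 reads. Both 6DPF libraries had at most 3 reads in 47 genes whose 1DPF libraries did not, and 12 of these were called, with a median of 0.472 CPM at 1DPF. Over all tested genes 21.7% were called. The genes near absence were picked by low values in a compared group and passed the filter only through other libraries. Nothing is therefore read from how many of them were called. No fold change is given for these genes singly because the lower group is at or under the floor of 3 reads per library. They were not left out of the counts and medians of fold change given above.

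The day between the groups was placed on a scale on which the 1DPF mean is 0 and the 6DPF mean is 1, in log2 CPM. In the higher genes the median position of 4DPF was 0.64 (quartiles 0.44 and 0.83), and in the lower genes 0.59 (quartiles 0.43 and 0.74). The 4DPF mean lay between the groups in 1649 of the 1923 higher genes and 1614 of the 1760 lower genes. Over all tested genes it lay between them in 51.9%, and choosing genes whose 1DPF and 6DPF means are far apart itself favours this, so nothing is read from the higher share. It lay beyond the 6DPF mean in 229 higher and 105 lower genes and beyond the 1DPF mean in 45 and 41. By group medians, the higher genes went from 10.7 CPM at 1DPF to 16.9 at 4DPF and 22.8 at 6DPF, and the lower genes from 37.2 to 25.9 and 20.4 CPM. A test of whether 4DPF left the midpoint of 1DPF and 6DPF called 0 genes (0% of 16986; edgeR quasi-likelihood test, adjusted), while 2017 genes had an unadjusted p under 0.05. In the same contrast DESeq2 called 323 genes, 267 above and 56 below the midpoint. With each library left out in turn edgeR called 0 to 10. The median positions moved between 0.63 and 0.67 for the higher genes and between 0.54 and 0.61 for the lower genes over the 12 alternatives in which they were computed.

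By group means, the fasted ventricle lay nearer to 6DPF than to 1DPF in 1395 of the higher and 1458 of the lower genes. This was not counted over all tested genes. On the same scale the median position of fasted was 0.8 in the higher genes (quartiles 0.45 and 1.1) and 0.85 in the lower genes (quartiles 0.61 and 1.1). The 1DPF replicates differed more from each other than the 6DPF replicates, and the part of this in the fasted and 4DPF positions was not tested. The fasted mean lay between the 1DPF and 6DPF means in 63.3% of the higher and 65.7% of the lower genes, against 40% of all tested genes. Choosing genes whose 1DPF and 6DPF means are far apart itself favours this, so nothing is read from the higher shares. It lay beyond the 6DPF mean in 616 higher genes (32%) and 573 lower genes (32.6%), and beyond the 1DPF mean in 89 and 31. The test of fasted against the midpoint called 830 of the tested genes (4.89%; edgeR quasi-likelihood test, adjusted p under 0.05), of which 729 (4.29%) lay towards 6DPF and 101 (0.595%) towards 1DPF. The side was set by the sign of the fitted change from 1DPF to 6DPF, whether or not that change was called. Among the 1923 higher genes 312 were called towards 6DPF and 19 towards 1DPF, and among the 1760 lower genes 211 and 6. The other genes of the 729 and the 101 had no called change between 1DPF and 6DPF, so their side is uncertain. The contrasts share the 1DPF and 6DPF libraries, so the counts are given side by side and are not independent of each other. Leaving out fasted replicate 1 or 2 reduced the 830 calls to 13 or 1. Leaving out a 1DPF library reduced them to 421 (replicate 1) or 459 (replicate 2), and leaving out a 6DPF library to 278 (replicate 1) or 254 (replicate 2). DESeq2 called 1959.

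The called genes fall into courses by where the fasted level stood. The 19 higher genes with fasted called towards 1DPF had medians of 3.18 CPM in the fast, 3.74 at 1DPF, 11.9 at 4DPF and 13.8 at 6DPF. That the fasted and 1DPF levels are close here follows from how the genes were chosen, and without either fasted library edgeR called 0 genes towards 1DPF. The 312 higher genes with fasted called towards 6DPF had medians of 39 CPM in the fast, 13.7 at 1DPF, 21.7 at 4DPF and 31.2 at 6DPF. The 211 lower genes with fasted called towards 6DPF were at a median of 20.6 CPM in the fast, 54.5 at 1DPF, 34.7 at 4DPF and 25.9 at 6DPF. In both sets a fasted level near or past that of 6DPF is likewise favoured by how the genes were chosen. The 6 lower genes with fasted called towards 1DPF had medians of 33.8 CPM in the fast, 30.1 at 1DPF, 17 at 4DPF and 18.9 at 6DPF. The remaining 1592 higher and 1543 lower genes were not called against the midpoint, which does not show that their fasted level lies at the middle.

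**Figure D5:**
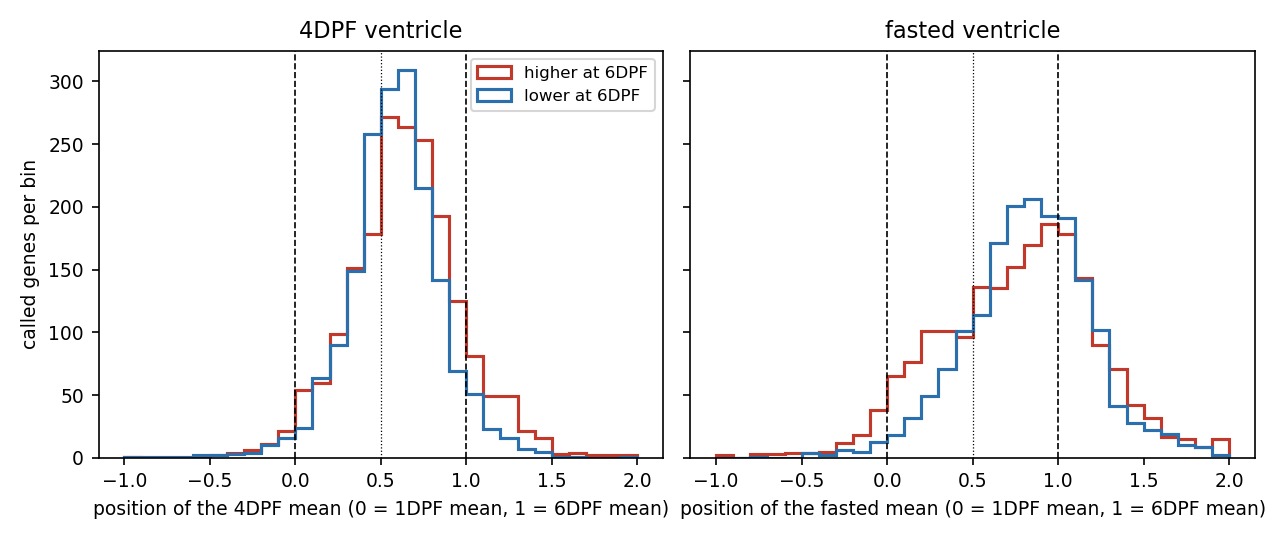
Histograms of where the mean of a group lies between the 1DPF mean (0, dashed line) and the 6DPF mean (1, dashed line) on the log2 CPM scale, with the midpoint dotted, for 4DPF on the left and fasted on the right. Red outlines are the 1923 genes higher at 6DPF, blue outlines the 1760 lower genes, and 14 values outside -1 to 2 over both panels are drawn in the end bins. The 4DPF distributions peak just past the midpoint (medians 0.64 and 0.59) and the fasted distributions nearer to 6DPF (medians 0.8 and 0.85).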

How the data were processed

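The table the authors deposited holds raw counts of reads by gene in 8 columns, and each gene's length in bases, per the file headers. The submitters' processing notes name DESeq2 1.36.0, featureCounts, HISAT2 2.1.0, SAMtools 1.8 and Trimmomatic 0.36. Settings, genome build, annotation and strandedness are not given in the sources used, so counts of overlapping, antisense or near-identical genes are uncertain.

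Columns were matched to samples by description label. The filter filterByExpr (minimum count 10, total 15) kept 16986 of 21368 genes. One edgeR 4.0.16 quasi-likelihood fit (R 4.3.3, TMM factors 0.9623 to 1.066, group as sole term, 4 residual degrees of freedom) took all 8 libraries, which share 1 estimate of the spread. Contrasts were 6DPF minus 1DPF, and 4DPF or fasted minus the midpoint of both. Standard errors were derived from the fitted log2 change and its quasi-likelihood F value. Intervals are symmetric 95% t intervals built on these errors, with moderated degrees of freedom, and are approximate. Log2 CPM used a prior count of 2. The 6DPF minus 1DPF test was also run on simulated counts, with fewer changed genes than were called here. The midpoint contrasts, positions, intervals and test against 2-fold were not covered by that run. Replicates differed beyond sampling noise, with 50.9 to 70.6 chi-square units per degree of freedom, so none was a duplicate deposit. Groups, contrasts and lists were chosen with earlier results of these data known. No identifier was paired with a symbol, so the planned gene lists were not used and, as the naming rule provides, 2 genes per direction are named by number. Intervals and floors cover the error of these libraries only.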

Additional observations from a re-analysis of the deposited data

How the results depend on the processing

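Alternatives were DESeq2 1.42.0, RLE factors, no filter on low counts, the replicate number as a block, the 1DPF and 6DPF libraries alone, and each library left out. A block with exchanged 1DPF numbers and the test against 2-fold were added after seeing the data. No gene called in both the main fit and an alternative changed direction, which groups that do not overlap make nearly certain. For 6DPF against 1DPF, 3683 genes were called, 2193 with the 1DPF and 6DPF libraries alone, 216 when tested against 2-fold, and 1838 to 3385 with 1 library left out. A group reduced to 1 library is assumed to vary like the others. With the replicate block 3361 genes were called, and with the exchanged numbers 4110. Across genes, replicate differences correlated at -0.2 between 1DPF and 6DPF, -0.34 between 1DPF and 4DPF, 0.43 between 4DPF and 6DPF, and -0.11, 0.086 and 0.052 between fasted and 1DPF, 4DPF and 6DPF. The labels give no pairing, and the numbers were not taken as pairs. For 4DPF against the midpoint, the 0 calls became 323 with DESeq2, 2 without a filter, 1 with the replicate block, 2 with the exchanged numbers and 0 to 10 with 1 library left out. For fasted against the midpoint, the 830 calls became 1959 with DESeq2 and 1 to 625 with 1 library left out. The cause was not tested. The planned counts over gene lists were not run, as no identifier was paired with a symbol. Few intervals lie within 2-fold among the lowest-level genes, and the part of depth in this was not tested.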
